A study of Drosophila melanogaster with 9 samples.

Results

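The 9 genes considered here are classical eye colour genes of Drosophila melanogaster: w, st, bw, v, cn, pr, pug, Hn and se. They were taken from the array annotation by current symbol or synonym, with the probe set of highest mean for each gene, out of 11982 genes measured. Of the 9, 6 had a probe set (st, bw, cn, pr, pug and se). The other 3 (w, v and Hn) had none in the annotation used and were not analysed here. RNA levels were read on 9 Affymetrix Drosophila_2 arrays: 3 of wild type, 3 of the OGA mutant and 3 of the SXC mutant. The enzymes of both targeted genes act on the sugar O-GlcNAc, which sxc attaches to proteins and Oga takes off. The labels state no allele, tissue, sex, age or marker mutation for any of the 3 groups. They also do not say whether the arrays of a group came from separate animals, so the p-values measure only the spread between these arrays, which may be technical.

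The fly's eye colour comes from brown ommochromes, made from tryptophan, and red pteridines, made from GTP. Enzymes such as v and cn make ommochrome precursors, enzymes such as pr and se make pteridines, and ABC transporters bring the precursors into pigment granules: w with st for ommochromes, w with bw for pteridines. Mutations of these genes are carried in many laboratory strains as visible markers. Some marker alleles reduce the transcript and others alter the protein with the RNA intact, so the array can bear only on the first kind. The comparison asked whether any of these transcripts differed between the 3 genotypes.

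On the arrays as a whole, medians were 5.96 to 6.04 on the log2 scale. SXC mutant replicate 1 lay farthest from the rest, at 22.7 on the first principal component against 10.5 and 13.0 for the other SXC arrays. The targeted genes were lower in their own mutants: Oga fell by 1.05 on the log2 scale in the OGA mutant (SE 0.10, limma adjusted p = 0.00698), and sxc by 1.49 in the SXC mutant (SE 0.06, adjusted p = 2.81e-07). For Oga the adjusted p rose to 0.0750 when the third wild-type array was omitted, and to 0.0551, 0.05003 and 0.0627 when the OGA arrays 1, 2 and 3 were omitted in turn. In all, the Oga call ended under 6 of 20 alternative settings, with a highest adjusted p of 0.979. Among them were no moderation of the variances and a fit of the 2 groups only. A measure of RNA quality, the log2 excess of 3′ over 5′ signal in the GAPDH_r2 controls, was 2.74 to 3.29 on the SXC arrays, 1.79 to 2.31 in wild type and 2.01 to 2.25 in the OGA mutant. The other 4 control pairs overlapped between SXC mutant and wild type: GAPDH read 1.08 to 1.24 against 0.91 to 1.12, ACTIN −0.0054 to 0.051 against −0.0075 to 0.084, eIF4a 0.11 to 0.26 against 0.20 to 0.31, and Act5C_r2 0.70 to 0.80 against 0.72 to 0.78. Between the mutants GAPDH did not overlap either, at 0.97 to 1.02 in the OGA mutant, while ACTIN, eIF4a and Act5C_r2 did. Precision is limited by the small number of arrays.

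In the SXC mutant, pr and se were lower and pug was higher than in wild type, by 1.22- to 1.30-fold, while st, bw and cn did not pass the test. Thus 3 of the 6 measured genes were called (limma, adjusted p under 0.05 over all genes), 1 higher and 2 lower; the same 3 had an unadjusted p under 0.05, as did 26.1% of all genes. Over all 11982 genes 12.9% were called in this comparison, 5.09% higher and 7.84% lower. Between OGA mutant and wild type 0 of the 6 were called in limma, against 0.00835% of all genes (Oga itself), and 0 of the 6 had an unadjusted p under 0.05, against 3.91%. The array values of 3 of the 6 genes did not overlap between SXC mutant and wild type (32.7% of all genes) and 1 of the 6 between OGA mutant and wild type (9.04%). The median log2 difference of the 6 genes was −0.032 in the SXC mutant and 0.070 in the OGA mutant, against −0.0063 and −0.00054 over all genes. Both comparisons use the same wild-type arrays. In bulk samples such as these, fewer cells of a type and less RNA per cell cannot be told apart.

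**Figure D1:**
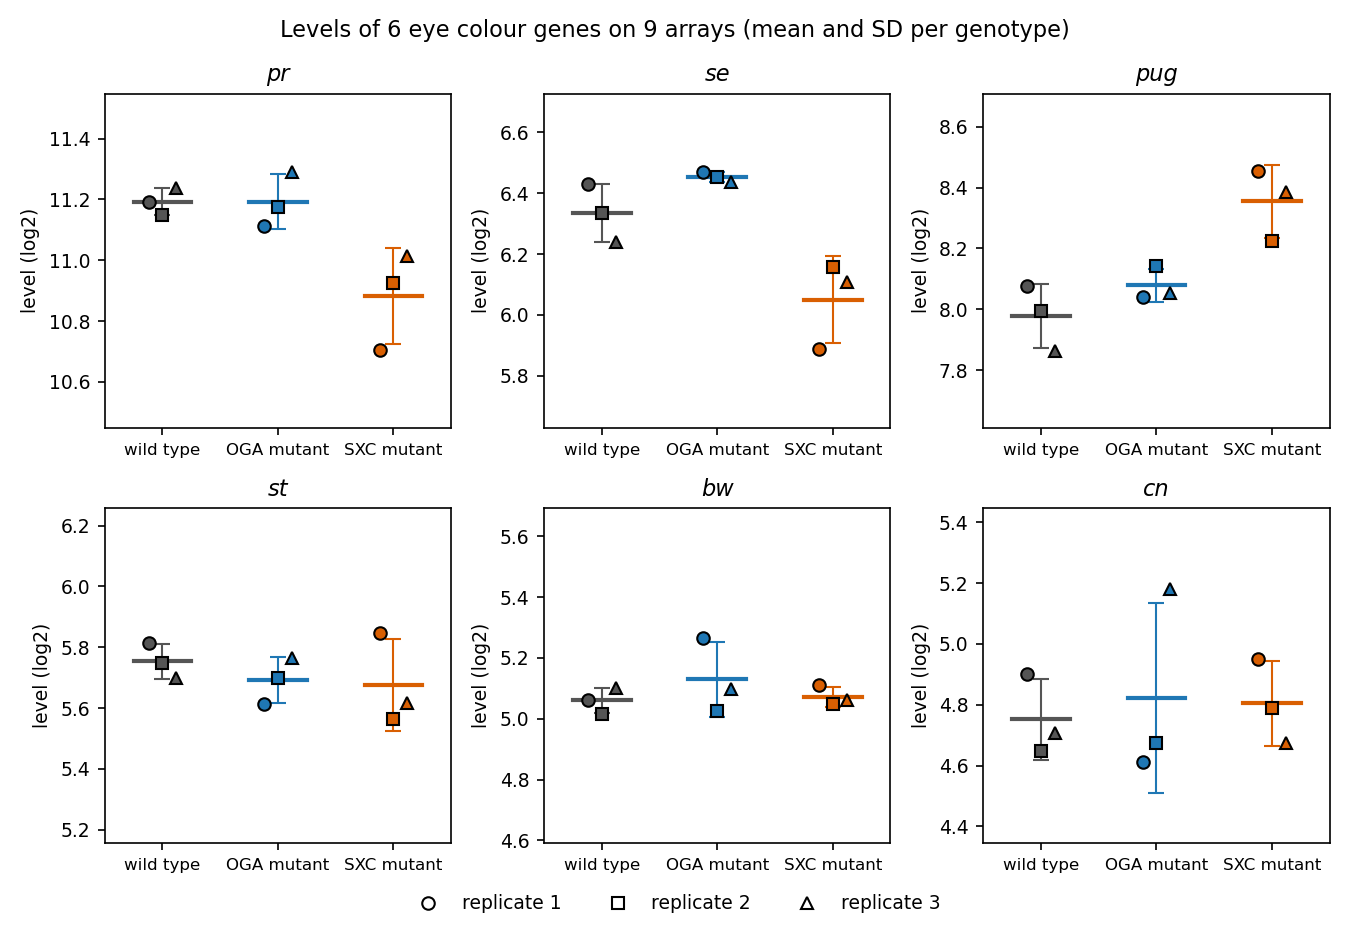
Log2 level (y axis) of each of the 6 measured eye colour genes on the 9 arrays, by genotype (x axis); marker shapes give the replicate number, thick lines the mean and error bars the SD (n = 3). Every panel spans the same log2 range. The 3 SXC mutant arrays lie below all other arrays for pr and se and above them for pug, and the groups overlap for st, bw and cn.

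Of the pteridine enzymes, pr (purple, chromosome 2L) encodes the pyruvoyl tetrahydropterin synthase that acts early in the pathway. It read 11.19, 11.15 and 11.24 on wild type replicates 1, 2 and 3, and 11.11, 11.17 and 11.29 on the OGA mutant arrays. On the SXC mutant arrays it read 10.71, 10.92 and 11.01. All 3 SXC arrays were below the other 6, and replicate 1 was the lowest. The log2 change in the SXC mutant was −0.31 with SE 0.08 (95% interval −0.50 to −0.13, limma adjusted p = 0.0334), a fall of 1.24-fold from 11.19 ± 0.04 to 10.88 ± 0.16 (SD, n = 3 each). In the OGA mutant the difference was −0.00073 with SE 0.08 (95% interval −0.19 to 0.18, adjusted p = 0.9997). The pr probe set is of the s type, which by Affymetrix naming can match transcripts of more than 1 gene or variant, although the annotation lists only pr for it.

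The gene se (sepia, chromosome 3L) encodes an omega-class glutathione transferase that makes a precursor of the red drosopterins. Its levels were 6.43, 6.33 and 6.24 in wild type, 6.47, 6.45 and 6.44 in the OGA mutant, and 5.89, 6.16 and 6.11 in the SXC mutant. The OGA arrays were all slightly above wild type and the SXC arrays all below it. The log2 change in the SXC mutant was −0.28 with SE 0.08 (95% interval −0.46 to −0.11, limma adjusted p = 0.0392), a fall of 1.22-fold from 6.33 ± 0.10 to 6.05 ± 0.14 (SD, n = 3 each). The difference in the OGA mutant was 0.12 with SE 0.08 (95% interval −0.06 to 0.30, adjusted p = 0.975).

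The gene pug (pugilist, chromosome 3R) encodes an enzyme of folate metabolism related to methylenetetrahydrofolate dehydrogenase, and its classical allele alters eye pteridines. It read 8.07, 7.99 and 7.86 in wild type, 8.04, 8.14 and 8.05 in the OGA mutant, and 8.45, 8.22 and 8.39 in the SXC mutant. The SXC arrays were above all the others, while wild type and the OGA mutant overlapped. The log2 change in the SXC mutant was 0.38 with SE 0.08 (95% interval 0.20 to 0.55, limma adjusted p = 0.0111), a rise of 1.30-fold from 7.98 ± 0.11 to 8.35 ± 0.12 (SD, n = 3 each). For the OGA mutant it was 0.10 with SE 0.08 (95% interval −0.07 to 0.27, adjusted p = 0.975). The pug probe set is also of the s type.

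The transporter genes did not pass the test in either mutant. For st (scarlet, chromosome 3L), the partner of w for ommochrome precursors, the arrays read 5.81, 5.75 and 5.70 in wild type, 5.61, 5.70 and 5.76 in the OGA mutant, and 5.85, 5.57 and 5.62 in the SXC mutant. The 3 groups overlapped, and the highest and the lowest array were both SXC arrays. Its log2 difference from wild type was −0.06 in the OGA mutant (95% interval −0.24 to 0.12, limma adjusted p = 0.979) and −0.08 in the SXC mutant (95% interval −0.26 to 0.10, adjusted p = 0.621).

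For bw (brown, chromosome 2R), the partner of w for pteridine precursors, the probe set of higher mean read 5.06, 5.02 and 5.10 in wild type, 5.27, 5.02 and 5.10 in the OGA mutant, and 5.11, 5.05 and 5.06 in the SXC mutant. The groups overlapped, with OGA mutant replicate 1 the highest array. The log2 difference was 0.07 in the OGA mutant (95% interval −0.09 to 0.23, limma adjusted p = 0.975) and 0.01 in the SXC mutant (95% interval −0.14 to 0.17, adjusted p = 0.941). A second bw probe set gave 0.06 and −0.08 for these differences, with neither called (adjusted p = 0.980 and 0.548 over all probe sets), so the probe sets differ in sign for the SXC mutant by an amount near their SE of 0.07.

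The ommochrome enzyme cn (cinnabar, chromosome 2R), which hydroxylates kynurenine, read 4.90, 4.65 and 4.71 in wild type, 4.61, 4.67 and 5.18 in the OGA mutant, and 4.95, 4.79 and 4.67 in the SXC mutant. The groups overlapped, and OGA mutant replicate 3 stood highest. Its spread within a group was the largest of the 6 genes (pooled SD 0.21, against 0.08 to 0.11 for the others). The log2 difference was 0.07 in the OGA mutant (95% interval −0.23 to 0.37, limma adjusted p = 0.987) and 0.05 in the SXC mutant (95% interval −0.25 to 0.35, adjusted p = 0.858).

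The 17 control probe sets named Tag read 3.84 to 5.85 on the 9 arrays. All arrays of st, bw and cn lay within that range, those of se lay just above it (5.89 to 6.47), and those of pug and pr lay well above it. The 95th percentile of the Tag readings was 5.51. All arrays of st lay between that and the highest Tag reading (5.57 to 5.85), while those of bw (5.02 to 5.27) and cn (4.61 to 5.18) lay below it. No detection calls were used. Whether st, bw and cn were detected at all is therefore not known, and a difference in a transcript near background is understated on this scale.

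None of the 6 genes had a difference as large as those of the targeted genes. The largest log2 difference of the 6 was 0.38 against wild type (pug in the SXC mutant) and 0.40 between the mutants (se), where the median size over the 1549 genes called in the SXC mutant was 0.38. Against wild type, the 95% intervals of the 6 genes together ran from −0.50 to 0.55. For pr, pug and se they thus did not include a 2-fold change on this scale, although se read only just above the range of the Tag controls. For st, bw and cn, which read within that range, the intervals cannot show whether the transcript changed. For w, v and Hn no value was obtained. Which alleles or transgenes the strains carried was not tested.

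**Figure D2:**
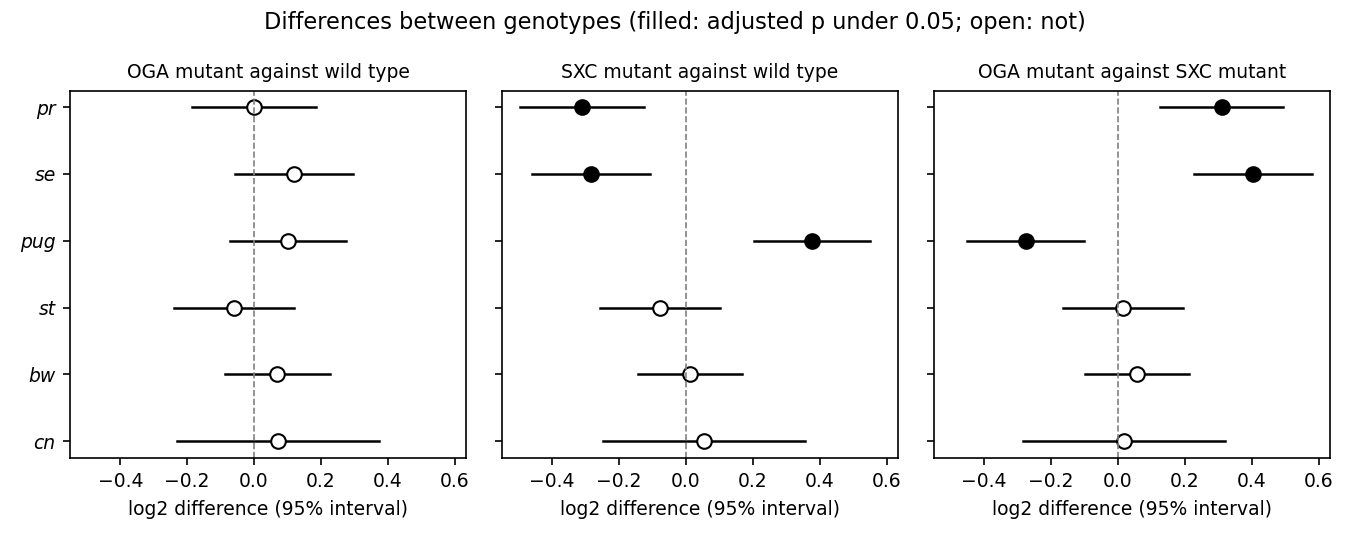
Log2 difference (x axis, with 95% interval) of each measured eye colour gene (y axis) in the 3 comparisons; filled points passed the test. The genes pr, se and pug passed in both comparisons that hold the SXC mutant, and 0 of the 6 passed between OGA mutant and wild type.

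Between the mutants 3 of the 6 genes were called, against 11.8% of all genes. In the direction of OGA over SXC, 2 were higher (7.79% of all genes) and 1 lower (3.98%), and the same 3 had an unadjusted p under 0.05 (26.6%). The log2 difference of OGA mutant minus SXC mutant was 0.40 for se (SE 0.08, limma adjusted p = 0.01001), 0.31 for pr (SE 0.08, adjusted p = 0.0361) and −0.28 for pug (SE 0.08, adjusted p = 0.0453). The 3 OGA arrays did not overlap the 3 SXC arrays for any of these genes, as was so for 30.2% of all genes. This comparison shares the SXC arrays with the one against wild type, so it is no independent repeat of it. The differences of st (0.02), bw (0.06) and cn (0.02) did not pass (adjusted p = 0.924, 0.660 and 0.953). The second bw probe set gave 0.14 with SE 0.07 (adjusted p = 0.227 over all probe sets). The call of se held without any 1 array. That of pr ended without wild type 1 or 2, OGA 2 or 3, or SXC 1 or 2 (adjusted p from 0.0515 to 0.117). That of pug ended without wild type 2, OGA 1, 2 or 3, or SXC 1 or 3 (adjusted p from 0.0655 to 0.150).

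The 3 calls of the SXC mutant differed in how firmly they held. The call of pug was kept under all 20 alternatives run, with log2 changes of 0.29 to 0.44 and limma adjusted p from 0.00390 to 0.0481. The call of pr ended under 7 of 20 (log2 −0.38 to −0.22, highest adjusted p = 0.1001) and that of se under 12 of 20 (log2 −0.34 to −0.20, highest adjusted p = 0.157). SXC mutant replicate 1, the outlying array, was the most extreme SXC array for all 3 genes. Without it the change was −0.22 for pr (adjusted p = 0.1001), −0.20 for se (adjusted p = 0.1204) and 0.33 for pug (adjusted p = 0.0429). The calls of both pr and se also ended without wild type replicate 1 (adjusted p = 0.0996 and 0.157) or wild type replicate 2 (0.0675 and 0.101). The pr call further ended without SXC mutant replicate 2 (0.0679) or wild type replicate 3 (0.0971), and the se call without OGA mutant replicate 1 (0.0510), OGA mutant replicate 2 (0.0569) or SXC mutant replicate 3 (0.0568).

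**Figure D3:**
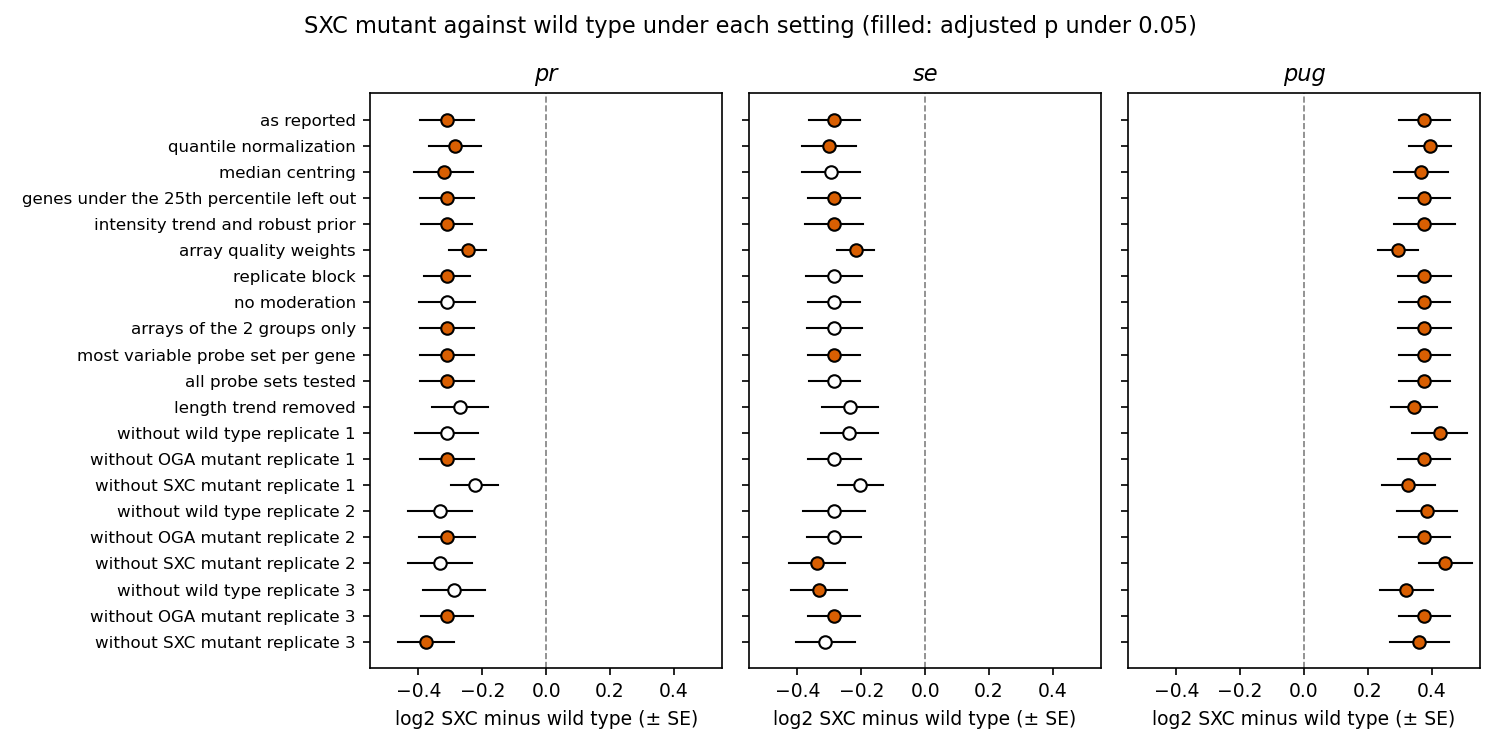
Log2 change of pr, se and pug in the SXC mutant against wild type (x axis, ± SE) as reported, under other processing settings and with each array left out (y axis); filled points passed the test. The change of pug stays between 0.29 and 0.44 and passes throughout, while pr and se keep their direction and pass under some settings only.

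The 3 called genes differ in length. The pug gene spans 6783 bp, pr 1740 bp and se 938 bp in the RefSeq annotation. Genes were ranked by length and divided into 5 groups. The median log2 change in the SXC mutant was −0.027 in the shortest group, which holds se, −0.047 in the next, which holds pr, and 0.039 in the longest, which holds pug. In the OGA mutant, where pr, se and pug were not called, the medians of these groups were −0.038, −0.024 and 0.026. All these medians were far smaller than the changes of pr, se and pug in the SXC mutant. With the length trend subtracted, a setting that was added once the data had been seen, the change was −0.27 for pr (limma adjusted p = 0.0705), −0.23 for se (adjusted p = 0.115) and 0.34 for pug (adjusted p = 0.0127). The part of the GAPDH_r2 difference in these results was not tested.

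On a list of pteridine pathway genes that includes pr, se, pug and bw, 4 of 13 measured genes were called in the SXC mutant. Of these 2 were higher and 2 lower, where 5.09% of all genes rose and 7.84% fell. The median log2 change of the 13 was 0.0090. At an unadjusted p under 0.05 it was 6 of 13, against 26.1% of all genes. Both counts repeat pr, se and pug from above, so they are no result about the other genes of the list. Beyond pr, se and pug the only call was Pu (Punch), the GTP cyclohydrolase that supplies the substrate of the pr enzyme. Only Sptr and Dhpr had an unadjusted p under 0.05 besides these. Pu read 7.26, 7.19 and 7.10 in wild type, 7.13, 7.34 and 7.22 in the OGA mutant, and 7.48, 7.43 and 7.43 in the SXC mutant. All SXC arrays were above the others for Pu and below them for pr, the next enzyme. The Pu log2 change was 0.26 with SE 0.07 (limma adjusted p = 0.0330), and the call ended under 11 of 20 alternatives, among them leaving out any 1 of the wild-type (highest adjusted p = 0.106) or SXC arrays (highest 0.0933). Sptr, sepiapterin reductase, differed by −0.22 (adjusted p = 0.0916), and Dhpr, dihydropteridine reductase, by −0.16 (adjusted p = 0.146). The xanthine dehydrogenase gene ry differed by 0.04 (adjusted p = 0.865).

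In the ommochrome pathway 0 of 5 measured genes were called in the SXC mutant in limma, and 0 at an unadjusted p under 0.05, against 12.9% and 26.1% of all genes. With so few genes, 0 of 5 is not a result about the pathway, and 4 of the 5 (st, cn, cd and KFase) read within the range of the Tag controls on all arrays. The largest of these was cd (cardinal), which acts late in the pathway, at 0.16 with SE 0.08 (adjusted p = 0.215). KFase, the kynurenine formamidase gene, was at −0.0011 (adjusted p = 0.997). Of the genes measured in the OGA mutant, 0 of 13 pteridine and 0 of 5 ommochrome genes were called in limma and 0 had an unadjusted p under 0.05, with medians of −0.00073 and 0.0089. The shares of all genes in that comparison were 0.00835% and 3.91%.

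Genes for the trafficking of pigment granules, which are lysosome-related organelles, changed in both directions in the SXC mutant: of 19 genes with a probe set 2 were higher, 3 lower and 14 not called, with a median of −0.023. Of all genes 5.09% were higher and 7.84% lower, and at an unadjusted p under 0.05 it was 9 of 19 in the list against 26.1%. The 3 that fell encode subunits of the BLOC-1 complex: Blos1 (log2 −0.40, SE 0.07, limma adjusted p = 0.00457), Dysb (−0.43, SE 0.08, adjusted p = 0.00562) and Pldn (−0.32, SE 0.09, adjusted p = 0.0316). The fourth BLOC-1 gene measured, Blos2, differed by −0.09 (adjusted p = 0.663). Those that rose were HPS4, of the BLOC-3 complex (0.42, SE 0.07, adjusted p = 0.00495), and Vps11, a core subunit of the HOPS tethering complex (0.47, SE 0.08, adjusted p = 0.00511). The other BLOC-3 gene, HPS1, was at −0.072 (adjusted p = 0.669). The other HOPS genes did not pass either. Of these Vps16A (0.19, adjusted p = 0.0563) and car (−0.26, adjusted p = 0.103) had an unadjusted p under 0.05 and SXC arrays that did not overlap wild type, while lt was at 0.050 (adjusted p = 0.719) and dor at −0.0029 (adjusted p = 0.987). The calls of Blos1, Dysb, HPS4 and Vps11 held under all 20 alternatives, and that of Pldn under 13. Among the losses for Pldn were those without wild type 1 or 2 or any 1 SXC array (highest adjusted p = 0.132). Classical eye colour genes of this group, among them g, rb, or, cm, car, lt, p, ca, dor and ltd (measured as Rab32), were not called. Besides car, an unadjusted p under 0.05 was seen for or (−0.22, limma adjusted p = 0.0912) and Rab32 (0.25, adjusted p = 0.146). For the OGA mutant 0 of 19 were called in limma (0.00835% of all genes) and 0 had an unadjusted p under 0.05 (3.91%), with a median of 0.048. Between the mutants Dysb (0.51), Blos1 (0.40) and Pldn (0.37) were higher in the OGA mutant, and Vps11 (−0.31) and HPS4 (−0.27) lower, with limma adjusted p from 0.00321 to 0.0358.

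**Figure D4:**
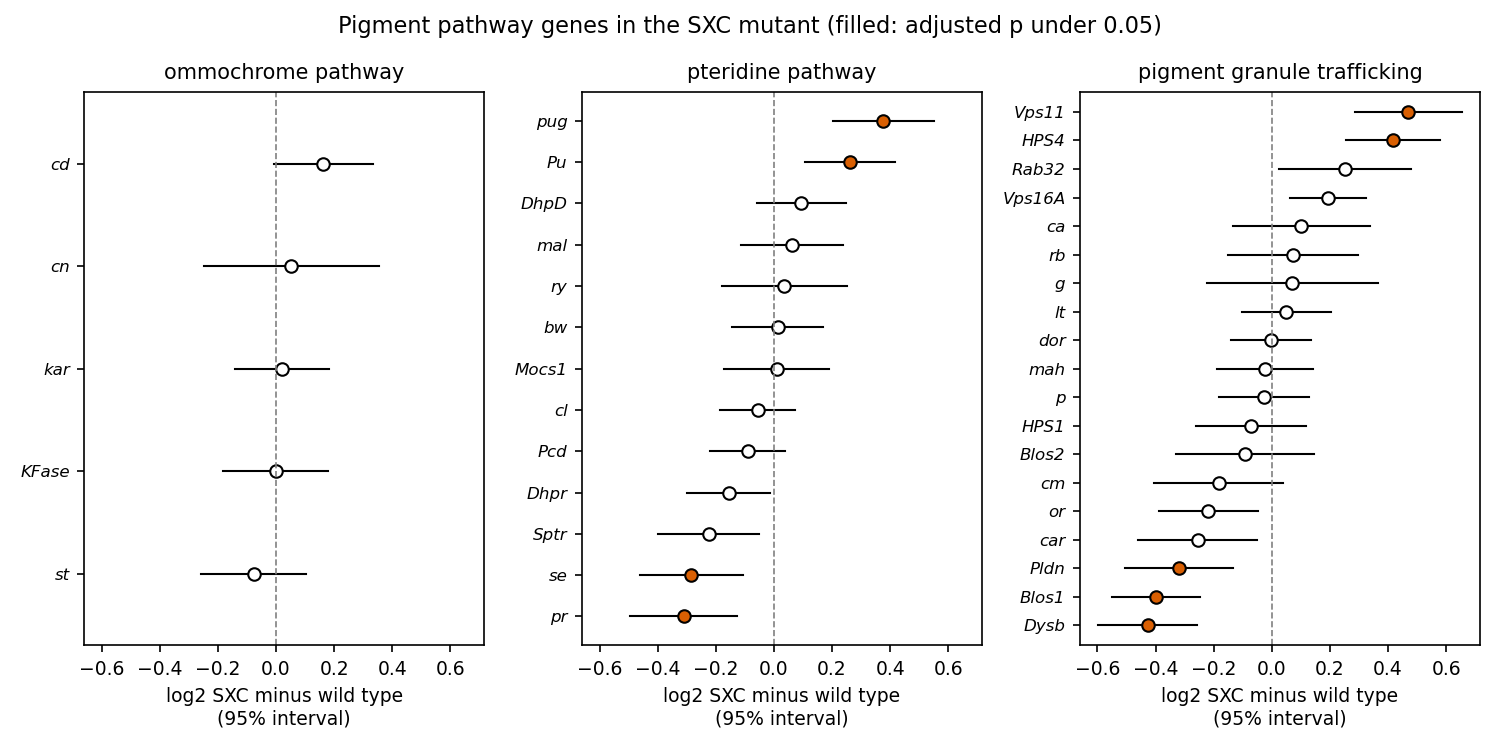
Log2 change in the SXC mutant against wild type (x axis, with 95% interval) of each measured gene (y axis) of the ommochrome, pteridine and pigment granule lists; filled points passed the test. Filled points lie on both sides of 0 in the pteridine and granule panels, and 0 of 5 are filled in the ommochrome panel.

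The neighbours of the 3 called genes on their chromosomes were examined for shifts shared with them, and 2 of 18 were called, a share near the 12.9% of all genes and so no result about the neighbours. Of the 3 measured genes on each side of pr, 1 of 6 fell in the SXC mutant and 5 did not pass: fok, at a log2 change of −0.91 (SE 0.17, limma adjusted p = 0.00730), while neb, the gene next to pr, was at −0.087. Its call ended with no moderation of the variances (adjusted p = 0.0707). Of those around se, 1 of 6 rose: the zinc transporter gene foi (0.72, SE 0.10, adjusted p = 0.00160). The neighbours of se include GstO1, GstO2 and GstO3, which encode glutathione transferases of the same class. GstO1 was at −0.088, GstO2 at 0.21 and GstO3 at −0.061, with 0 of these 3 called in limma (adjusted p = 0.643, 0.125 and 0.617), of which GstO2 had an unadjusted p under 0.05. Around pug 0 of 6 were called in limma, with log2 differences from −0.57 to 0.23, where Phyhd1 (adjusted p = 0.0581) and Skel (adjusted p = 0.130) had an unadjusted p under 0.05. For the OGA mutant 0 of these 18 neighbours were called in limma, and 1 (GstO1, −0.22, adjusted p = 0.975) had an unadjusted p under 0.05. Of all genes it was 0.00835% and 3.91%.

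**Figure D5:**
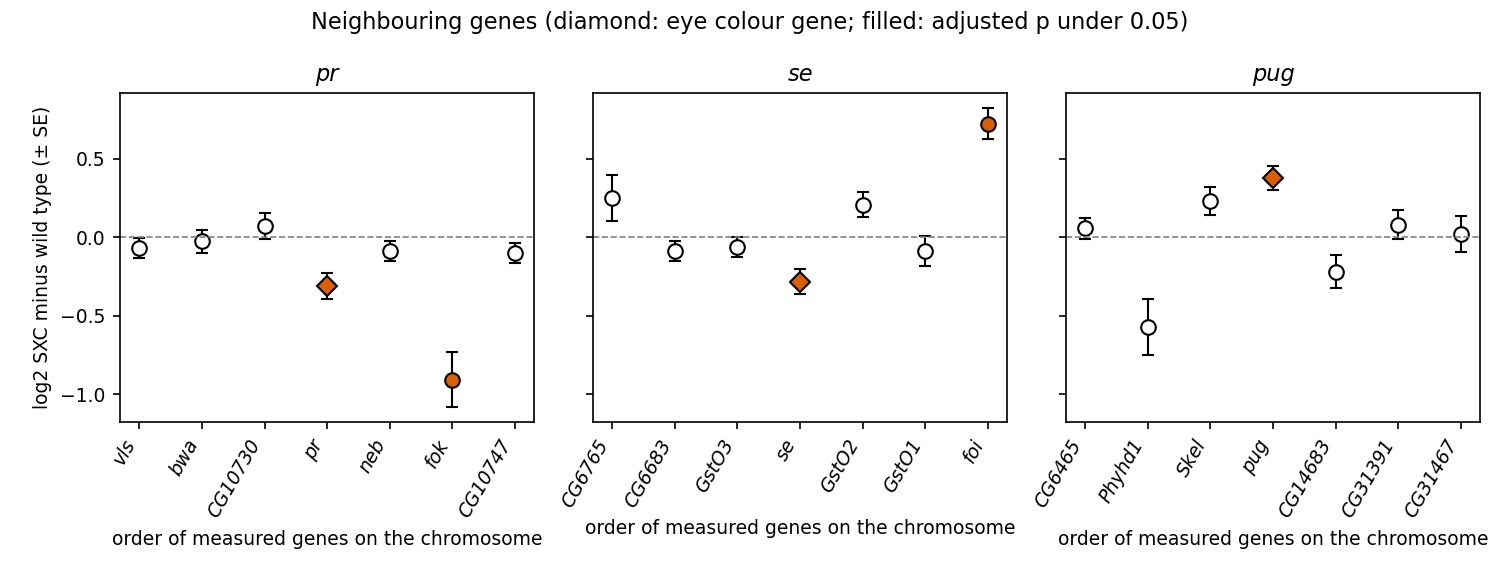
Log2 change in the SXC mutant against wild type (y axis, ± SE) of pr, se and pug (diamonds) and of the 3 nearest measured genes on each side (circles), in chromosome order (x axis); filled points passed the test. Of the 18 neighbours, fok beside pr and foi beside se are filled, and the genes directly beside pr, se and pug are not.

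Genes with the pattern most like each called gene were taken by the mean absolute difference, over the 9 arrays, of log2 deviations from each gene's own mean. For pr these were Gnf1 (0.0260), Xpac (0.0265), CG15014 (0.0297), ncm (0.0314) and CG12321 (0.0337), against a median of 0.153 over all genes. For se they were sty (0.0296), CG6184 (0.0431), MFS10 (0.0436), Kal1 (0.0438) and be (0.0448), against 0.171. For pug they were CG4301 (0.0416), Rbfox1 (0.0423), sano (0.0451), betaGlu (0.0454) and CG31097 (0.0490), against 0.170. None of these 15 genes is on the pigment lists. Few of the 11982 genes measured are on those lists, so this is no result about pr, se and pug.

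Markers of photoreceptors and Malpighian tubules, and of tissues outside the eye pigment system, were compared over the same arrays. Of all genes 12.9% were called in the SXC mutant and 0.00835% in the OGA mutant. At an unadjusted p under 0.05 it was 26.1% and 3.91%. Of 14 photoreceptor genes 7 were measured, and the summed level of these was 8.73 to 8.94 in wild type, 8.76 to 8.80 in the OGA mutant and 8.61 to 8.66 in the SXC mutant. The SXC arrays were thus below all the others, also without the brightest gene, chp (8.13 to 8.29, 8.16 to 8.24 and 7.99 to 8.01). The arrestin gene Arr2 fell in the SXC mutant (log2 −0.53, SE 0.10, limma adjusted p = 0.00794). The other 6 did not pass, at log2 differences of −0.11 to −0.023. Thus 1 of 7 was called, near the share of all genes, so this is no result about the list. The sum without Arr2 was not computed. On all arrays trp, inaD, inaC and Arr1 read within the range of the Tag controls. The rhodopsin genes on that list were not analysed here, and the 7 measured genes read from 4.52 to 7.49. Of 6 Malpighian tubule genes 4 were measured, with summed levels of 7.05 to 7.12, 7.06 to 7.12 and 7.11 to 7.44 in the same order. In limma 0 of the 4 were called in either mutant (at an unadjusted p under 0.05, 1 in the SXC mutant). All 4 read between 4.70 and 5.70 on the 9 arrays, within the range of the Tag controls. The summed level of 7 female germline genes was 11.22 to 11.35 in wild type, 11.30 to 11.45 in the OGA mutant and 11.59 to 11.72 in the SXC mutant, but grk alone made up 90.9% to 93.2% of it. Without grk the other 6 summed to 7.66 to 7.76, 7.69 to 7.76 and 7.77 to 7.93. In the SXC mutant grk rose by 0.40 (limma adjusted p = 0.00484). The nanos probe set was higher by 0.47 (adjusted p = 0.00364), with all arrays in the range of the Tag controls, so its detection is not known. The rest did not pass, with osk at 0.33 (limma adjusted p = 0.0644), orb at 0.14, vas at −0.16 and otu and bcd at −0.0062 and 0.011. Of these orb, vas and otu read within the range of the Tag controls on all arrays. Follicle cell genes (10 measured) summed to 9.50 to 9.69, 9.50 to 9.67 and 9.67 to 9.92, so the SXC mutant overlapped wild type. Of the 10, Fcp3C (0.70, limma adjusted p = 0.0126) and yellow-g (0.78, adjusted p = 0.0203) rose in the SXC mutant. The other 8 did not pass, and the median change of the list was 0.036. Of all 10 differences 3 were negative, among them Cp18 at −0.063. Testis genes (10 measured) summed to 10.15 to 10.29, 10.14 to 10.32 and 9.87 to 10.07, of which mia alone made up 77.9% to 84.9%, and mia fell in the SXC mutant (−0.34, limma adjusted p = 0.0265). Without mia the other 9 summed to 7.56 to 7.61, 7.54 to 7.59 and 7.51 to 7.69, so the groups overlapped, and the median change of the list was 0.0035. Of the genes measured for larva (4), male accessory gland (4) and adult fat body and yolk (5), 0 were called in limma in either mutant (at an unadjusted p under 0.05, 1 larval gene in the SXC mutant), and their summed levels overlapped between all groups. The part of these shifts in the changes of pr, se and pug was not tested.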

How the data were processed

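Levels came from a table of 18952 probe sets on 9 arrays, deposited by the authors as normalized log2 values. The log2 scale was read from the values. The submitters' processing notes list MAS5, RMA and Partek without saying which step each performed. All columns mapped to a sample (0 unmapped). After 183 controls were left out, 13647 probe sets had 1 gene in the platform annotation, 402 several and 4720 none listed. Symbols were updated through the Entrez identifier to RefSeq Release 6 plus ISO1 MT, used for names, lengths and gene order only. The probe set of highest mean was kept for each gene.

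Comparisons used limma 3.58.1 under R 4.3.3 (group means over all 9 arrays, 6 residual and 5.17 prior degrees of freedom, Benjamini-Hochberg over 11982 genes, called under 0.05). The code was tested on simulated data. The eye colour genes and all lists were chosen with earlier results of these data known and carry no test of their own. Names follow a rule: all measured members, up to 4 called genes of each list by smallest p, 3 neighbours on each side and the 5 most like genes of each called member. The fifth called granule gene, Pldn, and the other genes named that did not pass were chosen after their values were seen. Older list symbols were matched by synonym (ltd as Rab32, lxd as Mocs1, nos as nanos). Alternatives were quantile normalization, median centring, a level filter, other variance priors, array weights, a replicate block, each array left out, other probe set choices and removal of a length trend (lowess, span 0.5). The labels do not say whether arrays with the same replicate number were processed together. Of 9 same-numbered pairs 1 had correlated deviations over 0.1 (−0.22 to 0.29 across genes). Pairs with different numbers were not compared, so this cannot settle the question. Samples were not paired in the reported fit, and the replicate block is the alternative that uses the numbers.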

Additional observations from a re-analysis of the deposited data

How the results depend on the processing

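The 6 eye colour genes in 3 comparisons gave 354 values under the alternatives: 290 kept direction and side of the threshold, 43 lost the call and 21 changed sign. The number of eye colour genes called in the SXC mutant against wild type, 3, was 1 with no moderation of the variances, 1 with the length trend removed, and 1 to 3 with each array left out (1 without wild type 1, wild type 2 or SXC 1). Between the mutants, 3 became 0 with no moderation, 1 when only the arrays of the 2 groups were fitted, and 1 to 3 with each array left out (1 without SXC 1, wild type 2, OGA 2 or OGA 3). The count for the OGA mutant against wild type was 0 throughout. Over all genes, 1549 calls in the SXC mutant became 2824 with array quality weights, 820 with no moderation and 664 to 1751 with each array left out (664 without wild type 1, 896 without SXC 1, 984 without SXC 2 and 1027 without wild type 2). The 1410 between the mutants became 459 with no moderation and 724 to 1334 with each array left out (724 without SXC 1, 793 without SXC 2 and 806 without OGA 3). The 1 call in the OGA mutant became 2 with an intensity trend and robust prior, 0 with no moderation, 0 with the 2 groups only, and 0 to 1 with each array left out (0 without wild type 3 or any 1 OGA array). The replicate block left 2 eye colour genes called in the SXC mutant (se lost, adjusted p = 0.0709), 2 between the mutants (pug lost, adjusted p = 0.0690) and 0 in the OGA mutant, with 1261, 1130 and 1 calls over all genes.

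Signs changed only where the reported difference was within its SE. For bw in the SXC mutant the difference was −0.084 with the most variable probe set, −0.026 with the length trend removed, and −0.0093 to 0.033 with each array left out. For bw between the mutants it was −0.011 to 0.11 with each array left out. For cn it was −0.036 with array quality weights, −0.016 with the length trend removed and −0.16 to 0.12 with each array left out between the mutants, −0.11 to 0.18 in the OGA mutant and −0.020 to 0.13 in the SXC mutant. For pr in the OGA mutant it was 0.0082 with median centring, 0.0061 with array quality weights, 0.0035 with the length trend removed and −0.050 to 0.039 with each array left out. For st between the mutants it was −0.013 with the length trend removed and −0.039 to 0.10 with each array left out. The cause was not tested. With genes under the 25th percentile of level left out, bw and cn gave no value. The levels of st, bw and cn lie in the range of control probe sets, which limits what their differences can show.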

Other observations

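Mutations of body colour genes are also carried as visible markers, and these genes were compared in the same way on a list chosen with earlier results known. Of 15 measured, 4 rose, 2 fell and 9 did not pass (median log2 change 0.077), where 5.09% of all genes rose and 7.84% fell. The gene e (ebony), whose enzyme joins beta-alanine to dopamine, read 9.65, 9.62 and 9.56 in wild type, 9.64, 9.64 and 9.72 in the OGA mutant, and 8.82, 8.87 and 8.92 in the SXC mutant. Its arrays did not overlap between the SXC mutant and the rest, and the change was −0.74 with SE 0.06 (limma adjusted p = 0.000262), the fourth smallest p of that comparison. The gene t (tan), whose enzyme reverses the ebony reaction, read 4.76, 4.83 and 4.65 in wild type, 4.85, 4.86 and 4.53 in the OGA mutant, and 5.84, 5.42 and 5.55 in the SXC mutant, a rise of 0.85 (SE 0.12, adjusted p = 0.00162). All 9 arrays of t lie in the range of the Tag control probe sets (3.84 to 5.85), so its detection is not known and the size of its change is uncertain. The gene speck, an arylalkylamine N-acetyltransferase, changed by −0.87 (SE 0.12, adjusted p = 0.00187), and yellow-h by 1.40 (SE 0.15, adjusted p = 0.000707). The genes yellow-f2 (0.46, adjusted p = 0.00464) and y (0.68, adjusted p = 0.0109) also rose, chosen here after their values were seen. The first 4 calls held under every alternative run in which the gene was tested. In the OGA mutant 0 of the 15 genes were called in limma (0.00835% of all genes) and 0 had an unadjusted p under 0.05 (3.91%), with e at 0.059. Between the mutants 2 of the 15 were higher in the OGA mutant and 5 lower (7.79% and 3.98% of all genes), among them e (0.80) and yellow-h (−1.65).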
